A study of Mus musculus with 6 samples.

Results

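The 10 genes described here encode proteins stored in, or guarding against, the cytotoxic granules of natural killer (NK) cells: Srgn, Ctsc, Ctsd, Ctsw, Cst7, Nkg7, Lamp1, Serpinb9, Serpinb6b and Serpinb6a. Their Eomes binding sites were taken as the peaks whose deposited gene symbol was one of these names, 23, 20 and 37 of the 39073, 35421 and 50563 peak rows of experiments 1, 2 and 3. Overlapping intervals were joined across experiments, which gave 36 sites for 9 of the 10 genes, out of 84399 merged regions in all. The chromatin came from C57BL/6 wild-type mice aged 8 to 12 weeks, whose pooled spleens were the source of NK cells that were cultured for 4 days in IL-15 at 100 ng/mL. In each of 3 experiments, 1 library was made from DNA immunoprecipitated (IP) with an antibody to Eomes and 1 from input DNA without immunoprecipitation, so the 6 libraries form 1 IP group and 1 input group of 3 each. All libraries share genotype, culture and time, and each experiment pooled animals, so the spread between experiments is not a spread between mice. None of the 6 samples lacks Eomes, and peak lists hold no expression values, so neither the specificity of the antibody nor the identity of the cells could be checked against them.

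Eomes is a T-box transcription factor that NK cells need to mature. The cytotoxic granule is a modified lysosome in which perforin and granzymes are held on the proteoglycan serglycin, processed by cathepsins and kept in check by inhibitors until the granule fuses with the membrane facing a target cell. The killer cell protects itself with serpins, which trap granzymes that leak into the cytosol.

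A site is called reproducible when intervals of at least 2 of the 3 experiments share at least 1 bp. The pileup is read here as the number of fragments stacked at the peak summit, and the fold as the authors' ratio of that pileup to the background. Both readings rest on the column names of the lists, because the labels do not name a peak caller. The labels and lists give no sequencing depth. The median pileup was 12, 11 and 14 and the lowest was 8, 7 and 9 in experiments 1, 2 and 3. The lowest −log10 q was 1.31, 1.32 and 1.31 in the same order, so weaker binding does not appear in the lists. Because pileups are not scaled between lists, each is read by its percentile, the share of intervals in its own list with a lower pileup.

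Eomes sites were found at most of these genes. In each experiment taken alone, 9 of the 10 had a peak, against 54.1%, 54% and 60.1% of protein-coding genes in experiments 1, 2 and 3. A reproducible site was assigned to 9 of the 10, against 44.8% of 21887 protein-coding genes, with Serpinb6a the exception. For 7 of the 10 a site was found in all 3 experiments, against 29.8% of protein-coding genes. A reproducible site of the promoter class, which the deposited annotation extends to 3 kb from any transcript start, was present at 8 of 10, against 38.4%. Sites outside promoters were reproducible at Srgn, Ctsd and Serpinb9, that is 3 of 10 against 15.1%. At least 2 reproducible sites were assigned to 5 of 10 genes, against 16.1%, and at least 3 to 1 of 10, Ctsd, against 6.73%. No test was made of these shares, since the genes were chosen with earlier results of these data known.

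Of the 36 sites, 18 were reproducible (50%, exact 95% binomial interval 32.9 to 67.1%, counting error only), against 23.8% of all merged regions. All 3 experiments shared 11 sites, and 7 more were in 2. Promoter-class sites made up 11 of the 18 reproducible ones (61.1%, interval 35.7 to 82.7%), close to the 59.1% over all reproducible regions. The mean pileup percentile had a median of 93.6 over the sites in 3 experiments (range 31.5 to 99.5), 69.6 over those in 2 (45.2 to 84.9) and 44.7 over those in 1 (0 to 83.9). The ranges overlapped, and the site over the Ctsd start, found in all 3 experiments, had the 31.5. Experiment 3, which had the longest list, was the source of 13 of the 18 sites seen once, against 41.8% of all regions seen once.

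**Figure D1:**
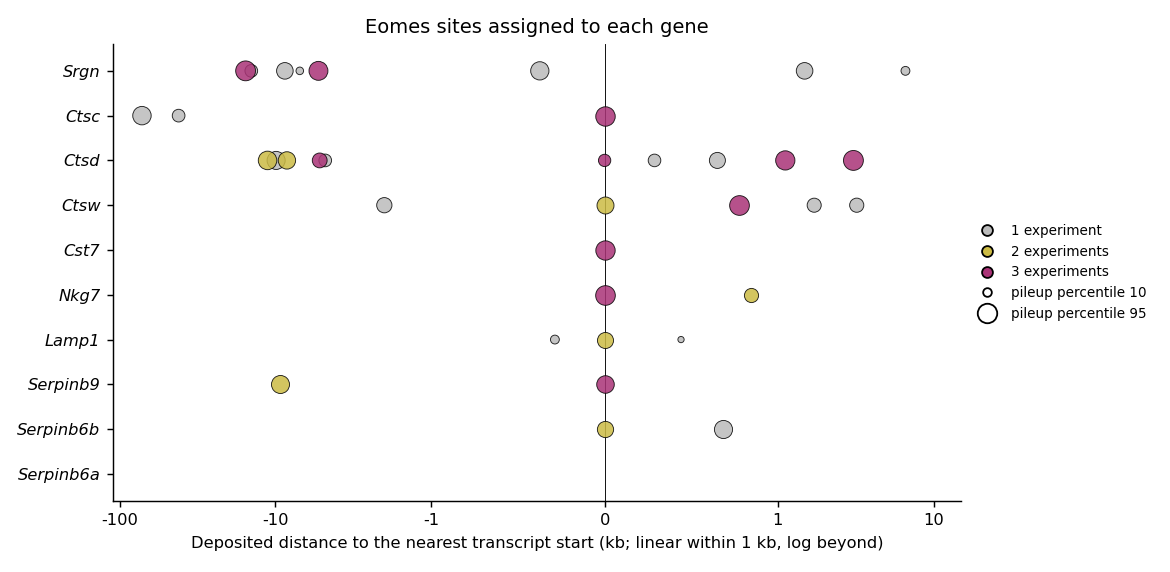
Sites assigned to each gene (rows) against the deposited distance to the nearest transcript start in kb, on an axis that is linear within 1 kb and logarithmic beyond. Colour gives the number of experiments with an interval in the site and point area the mean pileup percentile. Cst7, Ctsc, Nkg7, Ctsd and Serpinb9 have a site of all 3 experiments at the start, Srgn has its shared sites upstream, and Serpinb6a has none.

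Serglycin, encoded by Srgn, is the granule proteoglycan that binds granzymes and perforin through its charged sugar chains. Its reproducible sites were both upstream of the gene and neither was in the promoter class. Srgn has 2 RefSeq starts, an outer one at chr10:62527445 and an inner one at chr10:62507757. Upstream distances are given from the outer start and would be longer from the inner one. The leading site lay at chr10:62542988-62544726, in what the deposited annotation calls the first intron of a Kif1bp transcript. Its main summit was 16194 to 16221 bp upstream of the outer start in the 3 experiments. Its pileup was 50 in experiment 1, 36 in experiment 2 and 78 in experiment 3, each above at least 98.1% of the intervals of its list. The fold was 10.3, 10.9 and 14.7 (mean 12.0 ± 2.37, SD, n = 3). The main summits of the 3 experiments fell within 27 bp of each other, and experiment 3 placed 5 sub-peaks in this 1739 bp stretch.

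A weaker Srgn site was found at chr10:62532749-62533113, between the leading site and the gene. Its pileup was 24, 16 and 32 in experiments 1, 2 and 3, and the fold averaged 6.05 ± 1.44 (SD, n = 3). Its summits lay 5542 to 5565 bp upstream of the outer RefSeq start and within 23 bp of each other. The other 6 Srgn sites were seen once, 5 of them in experiment 3. These include 2 promoter-class sites at internal transcript starts, 18.9 and 21.3 kb into the gene from the outer start. Their summits lay on either side of the inner RefSeq start. No interval of any experiment overlapped the windows around either of the 2 RefSeq starts of Srgn, which reach from 250 bp before the start to 50 bp after it in the RefSeq promoter table.

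**Figure D2:**
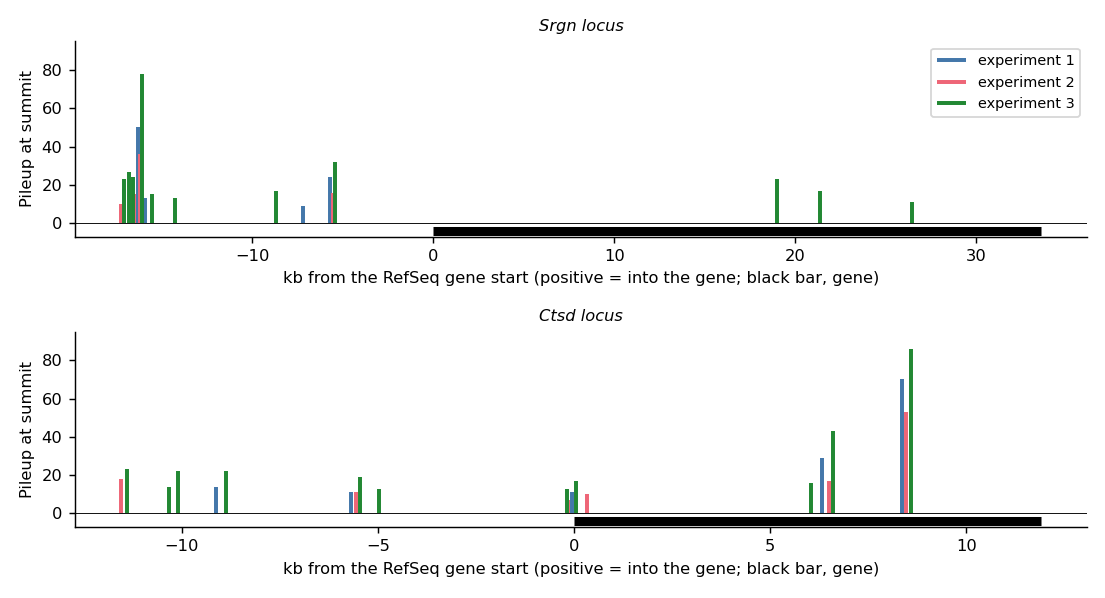
Pileup at each deposited summit along the Srgn and Ctsd loci, against kb from the RefSeq gene start, with positive values running into the gene (black bar). Lines of experiments 1 and 3 are drawn slightly left and right of their position so that they can be told apart; at Srgn the highest lines of all 3 experiments stand about 16.2 kb upstream, and at Ctsd they stand 8.5 kb into the gene.

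Among the proteases, Ctsd carried the strongest binding of the 10 genes. It encodes cathepsin D, an aspartic protease of lysosomes in most cell types. The leading site, chr7:142378993-142379615, was annotated to intron 4 of 5 of a Ctsd transcript that starts within the gene. Its pileup was 70, 53 and 86 in experiments 1, 2 and 3, above 99.5%, 99.3% and 99.5% of the intervals of their lists, and its fold was 21.3, 19.4 and 23.3 (mean 21.3 ± 1.94, SD, n = 3). The summits of all 3 experiments agreed to within 3 bp, 8474 to 8477 bp into the gene.

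Ctsd also had the most sites, 10 in all, of which 6 were reproducible, and it was the only one of the 10 genes with at least 5 (against 2.05% of protein-coding genes). The second, at chr7:142381184-142381569, had pileups of 29, 17 and 43, and lay about 6.4 kb inside the gene although it carried a promoter label, because a deposited transcript starts nearby. The site over the RefSeq start, chr7:142387685-142388171, was weak, with pileups of 11, 7 and 17 and a fold of 4.06 ± 0.80 (SD, n = 3). Its summits spread over 211 bp between experiments, and 7 is the lowest pileup in the list of experiment 2. Upstream, reproducible sites stood 5.6, 9.0 and 11.5 kb from the start. The one at 5.6 kb was in all 3 experiments with pileups of 11, 11 and 19. Those at 9.0 and 11.5 kb were each in experiment 3 and one other experiment.

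Cathepsin W, from Ctsw, is a papain-like cathepsin found mainly in cytotoxic lymphocytes. Its leading site, chr19:5466932-5467725, had pileups of 44, 30 and 46 in experiments 1, 2 and 3 and folds of 13.0, 13.2 and 12.5. The fold of 12.9 ± 0.37 (SD, n = 3) varied least between experiments of all the leading sites found in all 3. Although labelled as promoter, the site was inside this 3586 bp gene, with summits 1062 to 1081 bp downstream of the deposited transcript start and within 19 bp of each other. The start itself had only a weak site, chr19:5468413-5468666, with pileups of 14 in experiment 1 and 19 in experiment 3 and no interval in experiment 2. The other 3 Ctsw sites were each seen once, with pileups of 12 to 15.

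Cathepsin C, the product of Ctsc, is the dipeptidyl peptidase that cuts the propeptide from granzymes and so activates them. Its only reproducible site covered the gene start, chr7:88277851-88278470, with pileups of 31, 26 and 33 and folds of 5.90, 10.4 and 7.56 in experiments 1, 2 and 3 (mean 7.96 ± 2.29, SD, n = 3). The pileups of all 3 experiments lay above at least 92.7% of their lists. The summits were 32, 70 and 73 bp upstream of the RefSeq start. The Ctsc sequence before the most upstream annotated start is shown because it holds the short T-box motif GGTGTG (RefSeq, GRCm38.p6, chr7:88277835-88278023, plus strand). The motif is read here on the other strand as CACACC (capitals), 40 to 81 bp from the 3 summits. The same sequence holds the ETS motif GGAAGT, not marked and read as ACTTCC, 75 to 116 bp from the summits.

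Ctsc: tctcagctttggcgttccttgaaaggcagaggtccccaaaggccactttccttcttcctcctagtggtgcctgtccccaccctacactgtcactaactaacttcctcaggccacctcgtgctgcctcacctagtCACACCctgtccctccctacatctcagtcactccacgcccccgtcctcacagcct

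Cystatin F, encoded by Cst7, is the cystatin of cytotoxic cells that inhibits cathepsin C and related proteases within the granule pathway. Cst7 had 1 site, present in all 3 experiments and at the start of the gene (chr2:150570150-150570591). Pileups were 29, 21 and 35 in experiments 1, 2 and 3, above 95.1%, 91.8% and 93.8% of their lists, and the fold was 7.59, 8.5 and 9.28 (mean 8.46 ± 0.84, SD, n = 3). The summits fell 109 to 135 bp upstream of the start. Around them the sequence holds 1 Runx motif (TGTGGT) and 1 ETS motif (GGAAGT), both in capitals, the first 50 to 76 bp and the second 49 to 75 bp from the summits, and no T-box motif (RefSeq, GRCm38.p6, chr2:150570165-150570414, plus strand).

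Cst7: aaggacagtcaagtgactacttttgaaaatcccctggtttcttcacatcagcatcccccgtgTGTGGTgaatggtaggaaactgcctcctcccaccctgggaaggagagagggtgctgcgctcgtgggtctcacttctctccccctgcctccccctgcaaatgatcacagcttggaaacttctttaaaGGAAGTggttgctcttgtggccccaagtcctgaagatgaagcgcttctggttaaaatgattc

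Nkg7 encodes a membrane protein of cytotoxic granules that takes part in their release. Its leading region, chr7:43436314-43437550, spanned the start of this 1109 bp gene and held at least 2 separate summits in each experiment, which the wide interval of experiment 3 joined. The upstream summits, 611, 613 and 641 bp before the RefSeq start in experiments 1, 2 and 3, had pileups of 23, 21 and 38. The summits nearer the start had pileups of 48, 22 and 60 and folds of 11.0, 8.88 and 7.63 (mean 9.18 ± 1.72, SD, n = 3). Experiments 1 and 3 placed these summits 215 and 196 bp before the start, and experiment 2 placed its own 25 bp before it. Experiment 1 alone had a further interval of pileup 12 at 343 bp. A small second site near the end of the gene, chr7:43437899-43438081, was in experiments 1 and 2 with pileups of 13 and 10.

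The Nkg7 sequences are shown because, among the 9 genes with a window in the RefSeq promoter table, Nkg7 alone holds the long T-box motif AGGTGTGA (capitals in the short stretch, 14 bp from the summit of experiment 2 but 204 and 185 bp from those of experiments 1 and 3). The longer stretch covers the summits of experiments 1 and 3, and its capitals mark a Runx motif read on the other strand as ACCACA (RefSeq, GRCm38.p6, plus strand, chr7:43436888-43437072 for the long stretch and chr7:43437113-43437142 for the short one).

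Nkg7 upstream: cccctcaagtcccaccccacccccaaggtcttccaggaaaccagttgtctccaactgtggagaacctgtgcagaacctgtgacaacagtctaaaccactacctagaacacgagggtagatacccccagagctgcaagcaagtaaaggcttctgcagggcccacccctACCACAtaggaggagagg
Nkg7 start: gggggtagggaAGGTGTGAgaagaatcaga

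Lamp1 encodes CD107a, the lysosome membrane glycoprotein that appears on the surface of NK cells after degranulation. Binding there was weak. The reproducible site, chr8:13159083-13159287, had a pileup of 16 in experiment 1 and 14 in experiment 3, with folds of 6.04 and 4.33 (mean 5.18 ± 1.21, SD, n = 2), and no interval in experiment 2. Experiment 2 had instead a peak 494 bp into the gene with a pileup of 7. Without experiment 1 or without experiment 3, Lamp1 had no reproducible site. The summits in experiments 1 and 3 lay 45 and 26 bp after the RefSeq start.

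The Lamp1 and Ctsd promoters are shown together because they are the members whose RefSeq windows hold the E-box CACGTG (capitals), the core of the sites used by TFEB and related factors at lysosomal genes. Lamp1 has 4 of them within 61 bp of its start and Ctsd has 2, of which the one nearer the start is 166, 44 and 27 bp from the summits of experiments 1, 2 and 3. This motif was chosen after the sequences were seen. The stretches come from RefSeq, GRCm38.p6: Lamp1 chr8:13158911-13159134 and chr8:13159131-13159160 (plus strand), Ctsd chr7:142388048-142388077 and chr7:142387908-142387937 (minus strand).

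Lamp1 upstream: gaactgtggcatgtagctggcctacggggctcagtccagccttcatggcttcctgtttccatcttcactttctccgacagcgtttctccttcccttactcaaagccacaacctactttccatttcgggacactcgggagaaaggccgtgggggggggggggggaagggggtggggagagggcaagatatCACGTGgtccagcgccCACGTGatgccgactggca
Lamp1 start: ggCACGTGaccacatCACGTGcggaacgga
Ctsd upstream: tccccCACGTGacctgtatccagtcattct
Ctsd start: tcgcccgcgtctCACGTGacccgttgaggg

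**Figure D3:**
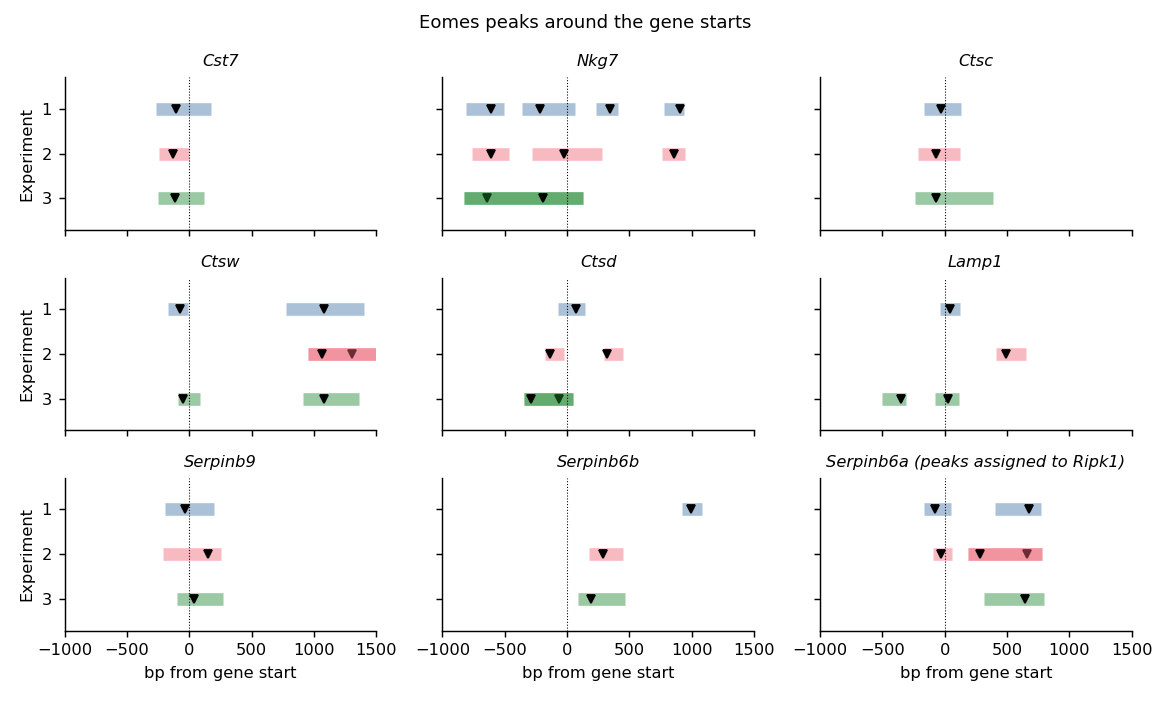
Deposited intervals (bars) and summits (triangles) of each experiment around the start of 9 genes, in bp from the start, positive into the gene. Starts are those of the RefSeq promoter windows, and for Ctsw that of the deposited transcript. The bars of Ctsc, Nkg7 and Serpinb9 cross the start in all 3 experiments, and those of Ctsd, Cst7 and Lamp1 cross it in experiments 1 and 3. The Cst7 bar of experiment 2 ends 2 bp before the start. The peaks at Serpinb6a carry the symbol Ripk1.

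At the sites assigned to serpin genes the pileups were lower than at the leading sites of the 3 protease genes. Serpinb9 encodes the serpin that inhibits granzyme B and shields the killer cell from it. A site over its start, chr13:33004326-33004809, was in all 3 experiments with pileups of 14, 14 and 24 and a fold of 4.71 ± 0.81 (SD, n = 3), and its summits spread over 184 bp. A second site, chr13:32993572-32993885, lay between Serpinb6b and Serpinb9, 10.8 kb upstream of the start used for the RefSeq promoter window of Serpinb9. The RefSeq gene span, chr13:32997061-33017955, begins farther upstream and holds that start. The site ended 3176 bp before the span. It had pileups of 16 in experiment 1 and 23 in experiment 3 with a fold of 5.48 ± 0.21 (SD, n = 2), and experiment 2 had no interval there. By mean percentile it ranked just above the start site, 79.7 against 75.1, so this distal site led only when experiments 1 and 3 were both kept and presence in all 3 was not required. The stretch of the Serpinb9 promoter with its short T-box motif (capitals) is given for comparison with Ctsc and Nkg7. That motif lay 131, 315 and 207 bp from the summits of experiments 1, 2 and 3 (RefSeq, GRCm38.p6, chr13:33004359-33004388, plus strand). A Runx motif (TGTGGT) of the same promoter window, outside this stretch, lay nearer to them, at 48, 135 and 27 bp.

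Serpinb9: gagaggaggctgGGTGTGtggaaatggatt

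Serpinb6b encodes a related intracellular serpin, and the start of its RefSeq promoter window also lies inside its gene span, chr13:32956811-32979067. Its reproducible site, chr13:32965347-32965728, had pileups of 11 in experiment 2 and 20 in experiment 3, the former at the median of its list. The fold was 4.09 ± 0.76 (SD, n = 2). The site covered a deposited transcript start, but its summits lay 288 and 193 bp downstream of the RefSeq start in experiments 2 and 3. No interval of any experiment overlapped the RefSeq promoter window. Experiment 1 had its single Serpinb6b interval elsewhere, 996 bp downstream of the RefSeq start, with a pileup of 17. Leaving out experiment 2 or experiment 3 removed the reproducible site. Whether reads could be placed uniquely in this cluster of similar serpin genes was not examined.

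No peak row carried the symbol Serpinb6a, yet its promoter was not free of peaks. Serpinb6a and Ripk1, a kinase gene of death receptor signalling, lie head to head on chromosome 13 and overlap by 570 bp, and 2 regions over the shared stretch were assigned to Ripk1. One, chr13:34001996-34002604, was in all 3 experiments with pileups of 26, 19 and 40 and covered the Ripk1 start. The other, chr13:34002733-34002962, covered the Serpinb6a start with pileups of 19 in experiment 1 and 10 in experiment 2, at summits 75 and 33 bp upstream of it. With assignment by position over the gene, an alternative added after this was seen, Serpinb6a was covered and Srgn was not, since both of its reproducible sites are outside the gene.

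Set side by side within each list, the leading sites kept part of one order. Ctsd had the highest pileup and Srgn the next in all 3 experiments. Nkg7, Ctsw, Ctsc and Cst7 followed, in an order that changed between experiments: Nkg7 came next after Srgn in experiments 1 and 3 and behind Ctsw and Ctsc in experiment 2. Serpinb9, Serpinb6b and Lamp1 came last wherever they had an interval. The folds of Ctsd (19.4 to 23.3) did not overlap those of any other member. The range of Srgn (10.3 to 14.7) overlapped those of Ctsw, Nkg7 (7.63 to 11.0) and Ctsc (5.90 to 10.4). The ranges of Nkg7, Cst7 and Ctsc overlapped one another, and that of Ctsc also overlapped that of Lamp1 (4.33 to 6.04). Ctsd, Srgn and Ctsw were each above the 95th percentile in every experiment, 3 of 10 against 3.03% of protein-coding genes. Over the 9 genes with a reproducible site, the leading site had a median mean percentile of 94.7, and over all 9806 such protein-coding genes the median was 74.0. Both values describe only genes that have a site.

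**Figure D4:**
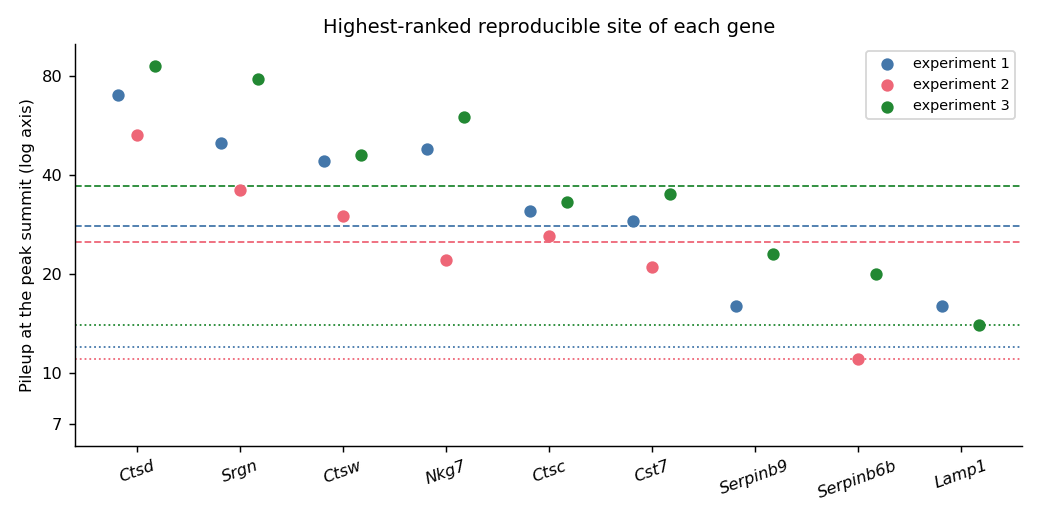
Pileup at the highest-ranked reproducible site of each gene, on a log axis, with 1 point per experiment; Serpinb9, Serpinb6b and Lamp1 have 2 points because 1 experiment had no interval there. Dotted lines mark the median and dashed lines the 95th percentile of each list in the colour of the experiment; the 3 points of Ctsd, Srgn and Ctsw lie above the dashed line of their own colour, and those of Serpinb9, Serpinb6b and Lamp1 lie below it.

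In the RefSeq promoter table, 9 of the 10 genes had a window, 11 windows in all because Srgn and Serpinb6a have 2 each. On either strand, GGTGTG was found in 4 of the 11 windows (those of Ctsc, Nkg7, Serpinb9 and Serpinb6b), against 19.0% of all 32851 windows of the same 300 bp. The Serpinb6b match lay outside its peaks, 354 bp or more from every summit. AGGTGTGA, which contains the shorter motif, was in the Nkg7 window only, against 1.28% of windows. TGTGGT was in 5 of the 11 windows (against 16.8% of all windows) and GGAAGT in 3 (23.8%). The AP-1 motif TGANTCA was in that of Cst7 only (7.81%) and CACGTG in 2 (7.15%). A GGTGTG can share letters with a TGTGGT that follows it. Across all windows, those with a summit in all 3 experiments held GGTGTG at 20.6% and those with no summit at 19.3%. In the same order, GGAAGT was held by 35.5% and 21.4%, CACGTG by 10.6% and 5.73%, and AGGTGTGA by 1.67% and 1.38%. The other motifs were less frequent in windows with a summit, TGTGGT at 13.6% and 18.1% and TGANTCA at 4.57% and 8.99%. The sequences of the Srgn, Ctsd and Ctsw leading sites were not analysed here.

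Genes related to the 10 were covered unevenly. A reproducible site was found at 19 of 47 genes in 6 lists (40.4%, against 44.8% of protein-coding genes). The lists hold chosen genes, and whole gene families were not counted. All 6 listed perforin and granzyme genes had a reproducible site. The highest-ranked were at Prf1, which encodes perforin (pileups 41, 43 and 71 at its promoter), Gzma (36, 30 and 69) and Gzmb (27, 17 and 21). Of the 10 other cathepsin genes listed, 3 had one. Ctss, the cathepsin S gene, alone had a site in all 3 experiments (28, 17 and 31, in the promoter class 2884 bp upstream), and Ctsh and Ctso had no peak. Of the other cystatins, 2 of 3 were covered, and Cstb, which encodes cystatin B, had a site in all 3 experiments with pileups of 13, 11 and 16.

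None of the 15 other clade B serpin genes listed had a reproducible site, and 9 of them had no peak at all. Any peak was assigned to 6 of the 15, against 71.2% of protein-coding genes. Read placement at these similar genes was not examined. Among other lysosome membrane proteins, 3 of 6 were covered, namely Laptm5 (44, 40 and 68 at an intronic site), Cd68 (36, 35 and 46 at its promoter) and Scarb2 (31, 19 and 47), while Lamp2 and Cd63 had no peak. Of 7 genes of lysosome biogenesis, 5 were covered. Gnptab, which encodes a subunit of the enzyme that tags lysosomal proteins, had a promoter-class site with pileups of 64, 33 and 75, and Tfeb, the regulator of lysosomal genes, had 10 reproducible sites led by one with 40, 38 and 62. Mitf had 18, 17 and 23 at its promoter, and Tfe3 had no peak. Lamp2 and Tfe3 are on the X chromosome, where 11% of protein-coding genes had a reproducible site, against 46.9% on the autosomes.

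**Figure D5:**
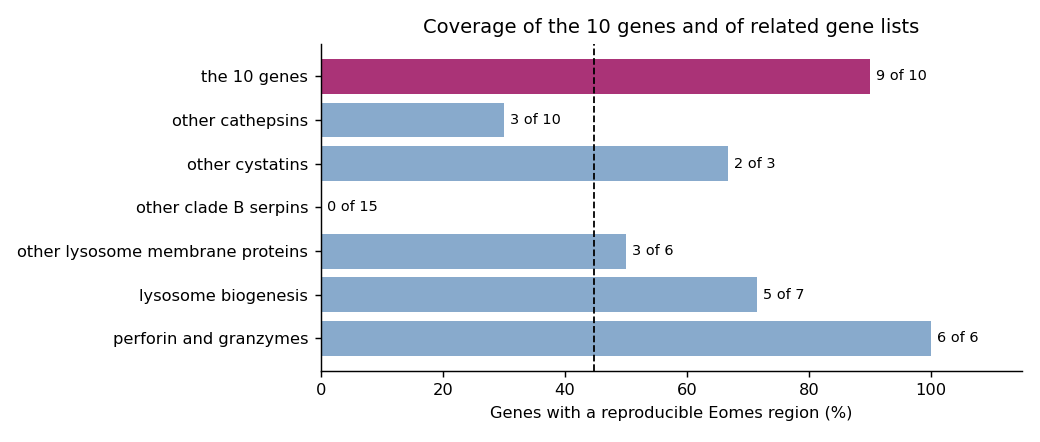
Share of genes with a reproducible Eomes site, in percent, for the 10 genes and for each related list, with the counts written at the bars and the dashed line at the 44.8% of all protein-coding genes. The 10 genes stand above the line, as do the perforin and granzyme, lysosome biogenesis, other cystatin and other lysosome membrane lists, and the other cathepsins and the other clade B serpins stand below it.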

How the data were processed

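Eomes-bound and input DNA from 3 experiments was sequenced, with fragments of 200 to 600 bp and 15 amplification cycles per the labels' protocols. Reads were aligned to mm10 with Novoalign and peaks annotated with ChIPseeker, per the submitters' processing notes; the labels do not name a peak caller. Each deposited list sets 1 IP library against the input of the same experiment. It gives the IP pileup (read as a signal in fragments), the authors' fold over background, and −log10 p and q values as deposited. Lists were made per experiment, not on pooled samples. Sub-peak rows of an interval were collapsed to the one with the highest −log10 q. Intervals sharing at least 1 bp were merged, a region belonging to every gene whose symbol a peak in it carries; the merging was checked on simulated intervals and against bedtools 2.31.1, which also gave 84399 regions.

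The background was 21887 nuclear protein-coding RefSeq genes (GRCm38.p6, the assembly behind mm10). The leading site is the reproducible site with the highest mean pileup percentile. Python 3.11.15, pandas 2.3.3, scipy 1.17.1 (exact Clopper-Pearson intervals) and matplotlib 3.10.9 were used. Motifs were searched on both strands of RefSeq promoter windows. The members and lists were chosen with earlier results of these data known, so counts are given beside the background with no test. All 10 genes are named; from each related list, up to 3 genes with the highest percentile among those with a region in all 3 experiments, and the genes without a peak where these were 5 or fewer. Alternatives covered the overlap, the −log10 q, the number of experiments, the promoter width, the ranking, the gene assignment, the motif and leaving out each experiment.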

Additional observations from a re-analysis of the deposited data

How the results depend on the processing

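With peaks of −log10 q of at least 5, the genes had 23 sites, of which 11 were reproducible, and 7 of the 10 genes were covered (without Lamp1, Serpinb6b and Serpinb6a) against 5603 protein-coding genes (25.6%). Requiring all 3 experiments left 11 sites, 7 genes and 6528 protein-coding genes. Assignment by position within 10 kb gave 58 sites and 10 genes (55.2% of protein-coding genes), and assignment over the gene itself, added after the data were seen, gave a promoter share of 92.9%. AGGTGTGA was found at 1 gene and CACGTG, also added after the data were seen, at 2, against 4 for GGTGTG. Leaving out each experiment in turn left 7 to 8 genes (31.0 to 37.4% of protein-coding genes, 6782 to 8194 of them), 25 to 35 sites, 13 to 15 reproducible sites, a promoter share of 60.0 to 69.2%, 15 to 18 genes of the related lists, and the same leading site for 6 to 8 genes. Of 89 leading folds recomputed, 5 moved by more than 1 SD, each where another site became the leading one. They belonged to Serpinb9 (4) and to Srgn, whose value was 6.05 with assignment within 10 kb. The other 84 moved by less than 1 SD, but they could not do otherwise. The same site led, with its values unchanged or with 1 of 3 experiments left out, so this is no measure of stability. No paired analysis was possible because each list holds a single IP library's values, with no separate value for its input. Peaks under the lowest pileup of each list (8, 7 and 9) could not be seen.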

Other observations

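Regions near these genes also carried the symbols of neighbours. Within 10 kb of the 10 genes lay 58 regions, and 28 of them were assigned to another gene or to none. Of the 23 reproducible ones, 7 were assigned elsewhere: 2 to Ripk1 at Serpinb6a, 2 to Ifitm10 near Ctsd, 1 to Vps26a near Srgn with pileups of 14, 13 and 15, 1 to Ccdc85b near Ctsw, and 1 without a symbol near Nkg7 with pileups of 15 and 16 in experiments 2 and 3.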
